A study of Homo sapiens with 10 samples.

Results

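The 56 genes described here act in mitosis: they code for the cyclins and kinases that start it, the spindle and its motors, the kinetochores that tie chromosomes to the spindle, and the machinery of chromosome separation and cell division. They were taken as a list of known G2/M genes, by a rule that uses no measured value but with earlier results of these data known, and all 56 were among the 19893 genes of the deposited count matrix. Their levels were followed in Kuramochi cells, an established line from a human serous ovarian carcinoma of high grade in which BRCA2 is mutated, under olaparib, a drug that blocks PARP1 and PARP2, enzymes of DNA repair. Drug-naive cells kept for 9 days in 10 µM olaparib (P10) or in 320 µM olaparib (P320) are called persister cells. Drug-resistant populations adapted to 10 µM (A10) or to 320 µM (A320) are called adapted cells, and drug-naive cells served as control. All groups come from the same line, and how long the adapted populations were grown in drug, or whether they are clones, is not given in the sources used here.

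Cells of all 5 conditions were hashed and mixed in each of 2 pools, and the condition and pool of a cell were read from its name in the matrix. UMI counts (1 UMI, or unique molecular identifier, marks 1 captured transcript) were added up by condition and pool, and the resulting 10 sums make n = 2 for every condition. Levels are given as CPM, counts relative to the depth of the sum, scaled with edgeR's trimmed mean factors, always with pool 1 before pool 2. Changes are log2 differences fitted with edgeR, and a gene counts as called at a Benjamini-Hochberg adjusted p under 0.05 over all 13330 genes tested. All 56 genes passed the filter on low counts. Whether the pools hold cells of separate cultures is not stated, so p-values here reflect only pool-to-pool spread, and that may be technical.

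Mitosis begins when cyclin B and CDK1 reach a threshold of activity set by CDC25 phosphatases. The spindle then captures chromosomes at kinetochores, and a checkpoint holds back the anaphase-promoting complex until every chromosome is attached. Genes of this program are transcribed late in the cell cycle, and many of them carry in their promoters a short element named CHR, through which the DREAM complex represses them in resting cells and the MuvB, B-MYB and FOXM1 proteins activate them in G2. A proliferating culture holds cells at all stages, so the level of these genes in a sum depends both on how many cells are in G2 and mitosis and on how much each such cell makes, and the sum cannot tell these apart.

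A second deposited cell table, marked g1, names 7762 of the 13800 cells. The other 6038 cells are called unlisted here, and they gave a second set of 10 sums in which 12360 genes were tested. How the table was made is not stated, and cell cycle genes may have been used for it, so which cells are unlisted is not independent of the 56 genes. Sums over all cells held 3532281 to 23189583 UMIs and unlisted sums 812531 to 14850917, with 3 UMIs worth 3.69 and 3.58 CPM in the shallowest, the unlisted P10 sums of 74 and 63 cells. The pools shared 13 cell barcodes. Of 9 epithelial and serous markers all were detected, with a summed level of 2792 to 3466 CPM in P10, 2308 to 2384 in P320, 2453 to 2523 in A10 and 1225 to 1357 in A320, against 4206 to 4298 in control. Leukocyte markers (4 of 5 detected, CD3E at 0) summed to 21.1 to 22.7, 2.91 to 4.01, 6.73 to 7.80 and 17.7 to 18.9 CPM in the same order, against 0.929 to 1.02 in control. Fibroblast markers (5 of 5 detected) summed to 97.1 to 101 CPM in A10 and to at most 3.60 elsewhere, and endothelial markers (3 of 3 detected) to at most 6.25 in any sum. The median mitochondrial share of UMIs was 4.99% and 4.98% in P10 cells, 9.21% and 9.42% in P320, 6.88% and 6.75% in A10 and 5.34% and 5.43% in A320, against 8.25% and 8.07% in control. The part of these differences in the results was not tested.

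Together the 56 genes made up less of the RNA of persister cells than of control cells, with intermediate values in A10. Their summed level was 2281 ± 61.6 CPM in P10, 2658 ± 41.4 in P320 and 4309 ± 192 in A10, against 6354 ± 72.6 in control (SD, n = 2). These values are 35.9%, 41.8% and 67.8% of control. In A320 the sum was 6331 ± 119 CPM, which is 99.7% of control. Both pools of P10, P320 and A10 lay below both control pools, while A320 overlapped with control. With 2 sums on each side, the smallest two-sided p an exact permutation test allows is 0.333; it was reached for P10, P320 and A10, and p was 1 for A320. With library totals in place of the fitted scaling factors the A320 sum differed from control by -957 CPM in place of -22.2. Both A320 sums, 5579 and 5424 CPM, then lay below both control sums, 6405 and 6512 CPM. PTTG1, CKS1B and UBE2C had the highest mean CPM of the 56 over the 10 sums. Without these 3 the A320 sums, 4565 and 4445 CPM, also lay below those of control, 5008 and 5078 CPM. The genes left out matter for this comparison. Of the 3, UBE2C and PTTG1 were higher in A320 than in control and CKS1B was lower. CENPF, which was kept, stood at 334 and 321 CPM in A320, against 646 and 651 in control. Sums without other genes were not compared.

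Unlisted cells were less frequent in each olaparib condition. They made up 24.3 ± 0.504% of P10 cells, 23.2 ± 2.68% of P320, 35.0 ± 2.92% of A10 and 45.5 ± 0.860% of A320, against 57.1 ± 0.839% of control cells (SD, n = 2, exact permutation p = 0.333 each). Within unlisted cells the summed level was 6599 ± 144 CPM in P10, 7061 ± 291 in P320, 8634 ± 136 in A10 and 10214 ± 151 in A320, against 9073 ± 168 in control. These are 72.7%, 77.8%, 95.2% and 112.6% of control. The persister sums stayed below control in this cell set, and the A320 sums lay above it. With library totals the P320 difference from control was -931 CPM in place of -2012, that of A10 -807 in place of -439, and that of A320 94.9 in place of 1141, where the A320 and control sums overlapped.

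**Figure D1:**
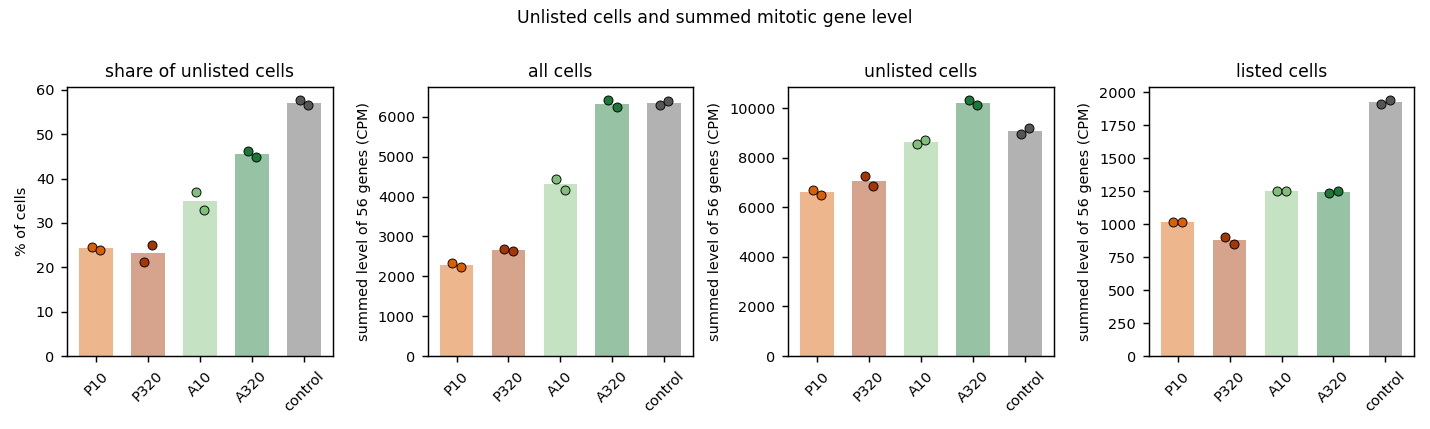
Share of unlisted cells in % (left) and summed level of the 56 genes in CPM over all, unlisted and listed cells, for P10 and P320 (persister cells at 10 and 320 µM olaparib), A10 and A320 (adapted cells) and control. Points are the 2 pools and bars their mean; over all cells P10 and P320 average 2281 and 2658 CPM, against 6354 in control, and in unlisted cells 6599 and 7061, against 9073.

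Over all cells, nearly the whole program was lower in persister cells. In P10, 55 of 56 genes were lower than in control and 1 was higher, where 29.3% of all genes tested were called lower and 27.3% higher. In P320 the counts were again 55 lower and 1 higher, beside 28.3% and 26.3% of all genes. The median log2 change of the 56 genes was -1.61 in P10 and -1.37 in P320, and that of all genes tested was -0.03 and -0.01. CDC25B, a phosphatase that activates CDK1, was the gene called higher in both. The largest falls in P10 were those of BUB1B, DLGAP5 and KIF4A, and in P320 those of CDC20, KIF20A and AURKA.

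Adapted cells at 10 µM stood between persister and control cells. In A10, 48 genes were lower than in control, 3 were higher (CDC25B, AURKB and CENPM) and 5 were not called, beside 33.4% lower and 33.7% higher among all genes. In A320 33 genes were lower, 12 higher and 11 not called, beside 36.9% and 37.6% of all genes. The share of the 56 genes called lower was thus above that of all genes, and the share called higher below it. The 12 genes called higher were CDC25B, UBE2C, AURKB, CENPM, CENPN, CDK1, BUB3, PTTG1, CKS2, BIRC5, CCNA2 and CCNB2. Medians of the 56 genes were -0.57 in A10 and -0.23 in A320, against 0.00 and 0.01 for all genes. Library totals moved the all-gene median in A320 to -0.22 and gave 42 genes lower and 10 higher.

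**Figure D2:**
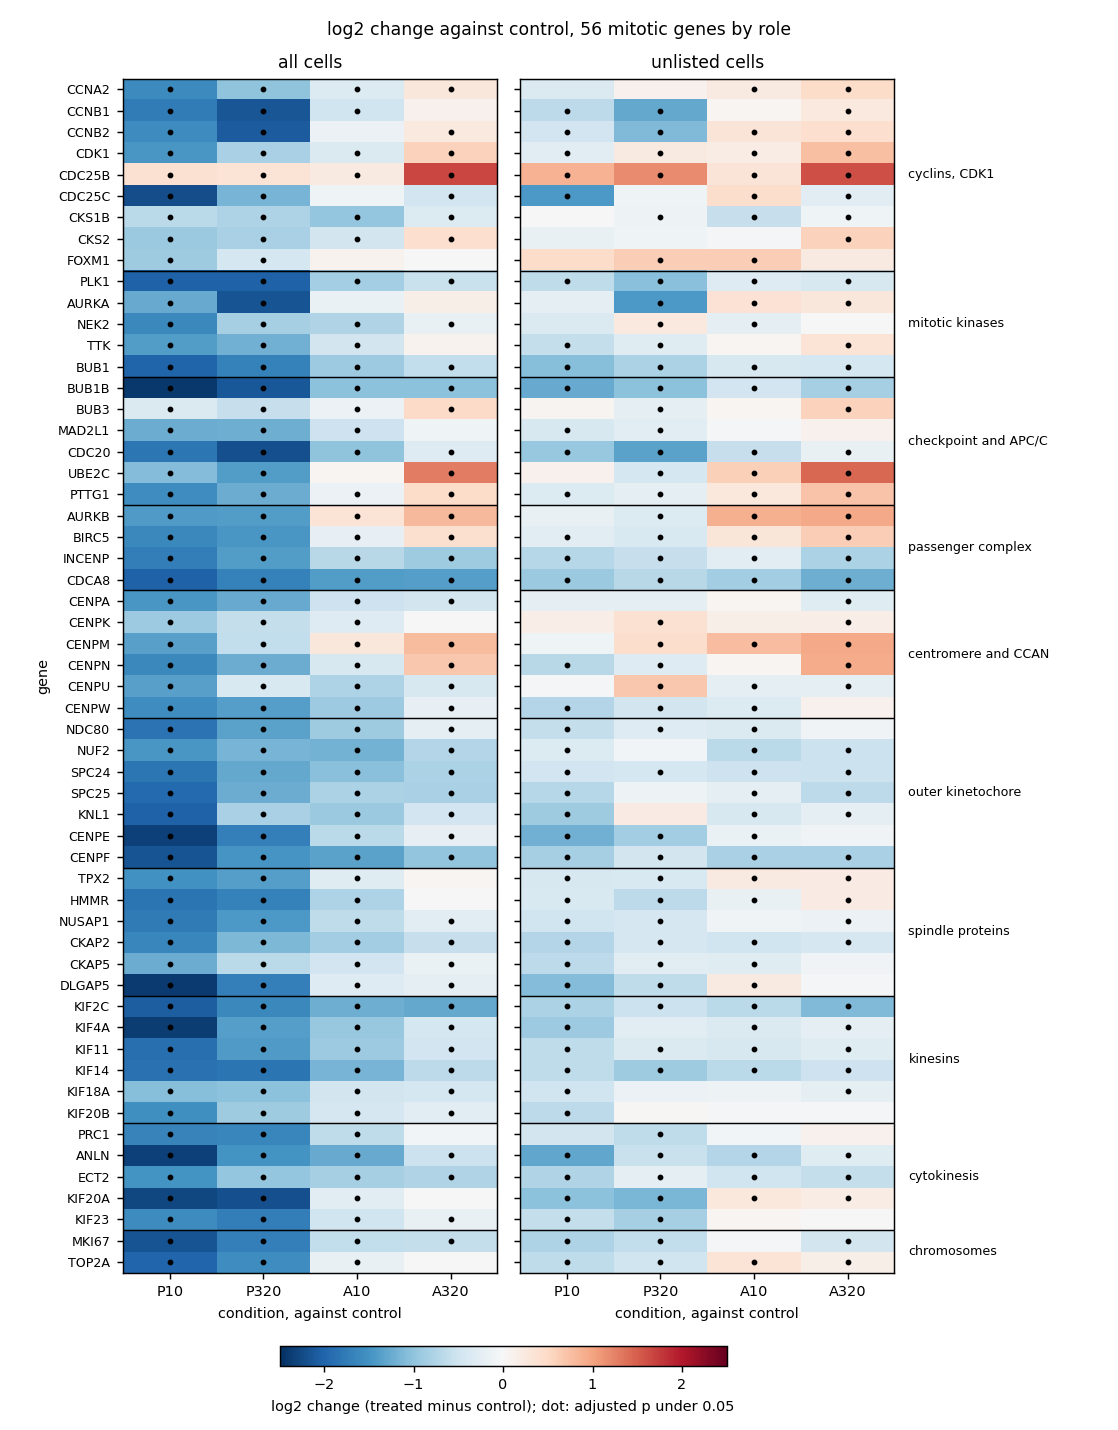
Log2 change against control (colour, blue lower and red higher) of the 56 genes, grouped by role, in P10, P320, A10 and A320, over all cells (left) and unlisted cells (right). A dot marks an adjusted p under 0.05; over all cells the P10 and P320 columns are blue in 55 of 56 rows, and the A320 column holds 33 lower and 12 higher calls.

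The promoters show what many of these genes have in common. RefSeq promoters on GRCh38.p14, 250 bases before to 50 bases after the start of the gene, were at hand for 47 of the 56 genes; those of TTK, BUB3, FOXM1, KNL1, BIRC5, TPX2, UBE2C, AURKA and CENPM were not. The CHR letters TTTGAA, read on both strands, occurred in 31 of the 47 (66.0%), in 992 of 10474 promoters of genes tested over all cells (9.47%) and in 1 of 33 promoters of S phase genes (3.03%). From 100 bases before the start to 50 after it they were in 29 of 47 (61.7%), against 3.62% of the promoters of genes tested. The letters CCAAT, the box bound by NF-Y, occurred on either strand in 38 of 47 (80.9%), against 36.3% of those of genes tested. Among promoters of S phase genes the share was 57.6%. Shown next are the 150 bases before the start of 6 genes that hold CHR, so that its place can be seen. The last is CDC25B, which was chosen after its values were seen and holds neither motif in this window. For each gene only the first listed start was searched, so a motif at another start would be missed. At the start searched, the promoters of CDC25C, CENPE, CKAP2 and KIF2C hold neither motif as well. Each of CDC25C, CENPE, CKAP2 and KIF2C was called lower in P10 over all cells. Capitals mark the CHR letters and the CCAAT box in either orientation, and these overlap in MKI67 and CDCA8.
PLK1 (chr16:23678739-23678888, + strand): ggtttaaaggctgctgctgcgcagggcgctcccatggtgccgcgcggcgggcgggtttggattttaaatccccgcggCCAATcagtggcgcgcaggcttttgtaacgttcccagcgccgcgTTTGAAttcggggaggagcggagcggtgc
CDC20 (chr1:43358831-43358980, + strand): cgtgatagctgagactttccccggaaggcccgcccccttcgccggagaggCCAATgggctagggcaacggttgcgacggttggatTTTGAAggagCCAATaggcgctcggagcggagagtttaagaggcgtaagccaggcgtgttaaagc
MKI67 (chr10:128126424-128126573, - strand): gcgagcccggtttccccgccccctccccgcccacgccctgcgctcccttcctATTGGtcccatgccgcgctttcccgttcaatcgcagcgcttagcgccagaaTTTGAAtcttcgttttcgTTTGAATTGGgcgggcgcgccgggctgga
CKS1B (chr1:154974531-154974680, + strand): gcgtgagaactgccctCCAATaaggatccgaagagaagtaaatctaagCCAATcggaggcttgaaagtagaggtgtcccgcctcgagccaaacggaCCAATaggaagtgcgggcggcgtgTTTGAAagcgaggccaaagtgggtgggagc
BUB1B (chr15:40160919-40161068, + strand): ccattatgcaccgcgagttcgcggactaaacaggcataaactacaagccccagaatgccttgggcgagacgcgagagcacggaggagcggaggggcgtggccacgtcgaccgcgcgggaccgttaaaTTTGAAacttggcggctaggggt
CDCA8 (chr1:37692366-37692515, + strand): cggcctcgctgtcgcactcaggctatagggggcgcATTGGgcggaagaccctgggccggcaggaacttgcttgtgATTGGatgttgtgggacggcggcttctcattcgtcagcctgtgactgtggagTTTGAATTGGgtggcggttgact
CDC25B (chr20:3786801-3786950, + strand): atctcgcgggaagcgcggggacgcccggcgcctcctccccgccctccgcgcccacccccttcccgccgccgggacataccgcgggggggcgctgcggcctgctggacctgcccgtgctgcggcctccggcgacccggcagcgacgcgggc

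The first base of CHR lay at -29 from the start in PLK1, at -65 in CDC20, at -30 in CKS1B and at -23 in BUB1B and CDCA8, and the first of the pair in MKI67 at -47. In P10 all 31 genes of the list with CHR were lower, with a median log2 change of -1.77. Of those without it at the start searched, 15 of 16 were lower, with a median of -1.62. Outside the list, 350 tested genes had CHR near the start, and 41.7% of them were lower in P10, against 29.1% of the 10077 without it. In A320 those shares were 44.6% and 36.6%. A match of 6 letters is a description of the sequence and not a binding site.

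Among the 9 genes of cyclins, CDK1 and their activators, 8 were lower and 1 higher in both P10 and P320, 5 were lower and 1 higher in A10, and 2 were lower and 5 higher in A320. Of all genes, 29.3% were lower and 27.3% higher in P10, and 28.3% and 26.3% in P320. In A10 the shares were 33.4% and 33.7%, and in A320 36.9% and 37.6%. CCNB1, the cyclin that starts mitosis with CDK1, was at 49.0 and 45.2 CPM in P10 cells, 36.6 and 34.9 in P320, 111 and 113 in A10 and 172 and 167 in A320, against 154 and 161 CPM in control. Its P10 and P320 sums were the lowest of all, and its A320 sums lay above those of control. CCNB1 log2 changes against control were -1.74 ± 0.068 in P10, -2.14 ± 0.061 in P320, -0.49 ± 0.050 in A10 and 0.10 ± 0.049 in A320 (SE), and edgeR did not call A320. CDK1, the kinase itself, was at 40.0 and 40.8 CPM in P10 cells, 63.2 and 63.9 in P320, 90.8 and 81.2 in A10 and 163 and 169 in A320, against 108 and 115 CPM in control. CDK1 log2 changes against control were -1.46 ± 0.077 in P10, -0.81 ± 0.061 in P320, -0.37 ± 0.056 in A10 and 0.58 ± 0.054 in A320 (SE), and edgeR called all 4. CDK1 was thus lower in persister and A10 cells and higher in A320 cells than in control. Cyclin group calls with library totals were 6 lower and 0 higher in A10 and 3 lower and 3 higher in A320. Cyclin group calls with cells thinned to 3000 UMIs were 7 lower and 1 higher in P10, 8 lower and 0 higher in P320, 6 lower and 0 higher in A10 and 1 lower and 3 higher in A320. Cyclin group calls with sums thinned to the smallest total were 8 lower and 0 higher in P320, 4 lower and 0 higher in A10 and 1 lower and 6 higher in A320. In this group, calls or directions were lost with library totals as scaling for CCNB1 in A320 (-0.12).

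CCNB2, the second B-type cyclin, was at 25.02 and 18.7 CPM in P10 cells, 14.4 and 16.2 in P320, 59.0 and 59.2 in A10 and 79.9 and 74.6 in A320, against 65.4 and 64.8 CPM in control. CCNA2, the cyclin of S phase and G2, was at 11.9 and 15.9 CPM in P10 cells, 21.7 and 20.3 in P320, 33.1 and 33.2 in A10 and 50.6 and 52.6 in A320, against 41.7 and 42.7 CPM in control. Both were lowest in persister cells and highest in A320. In A320 the log2 change of CCNA2 was 0.29 ± 0.067 (SE, edgeR adjusted p = 0.000284) and that of CCNB2 0.25 ± 0.064 (SE, edgeR adjusted p = 0.00105). CKS1B and CKS2 code for small subunits that bind CDKs. CKS1B was at 328 and 322 CPM in P10 cells, 308 and 301 in P320, 270.3 and 258 in A10 and 408 and 409 in A320, against 509.8 and 523 CPM in control. CKS1B log2 changes against control were -0.67 ± 0.045 in P10, -0.76 ± 0.043 in P320, -0.97 ± 0.042 in A10 and -0.34 ± 0.042 in A320 (SE), and edgeR called all 4. Its lowest sums were those of A10, not those of the persister cells. CKS2 was at 131 and 133 CPM in P10 cells, 145 and 142 in P320, 182 and 185 in A10 and 335 and 337 in A320, against 248 and 255 CPM in control, with an A320 log2 change of 0.42 ± 0.043 (SE, edgeR adjusted p = 5.88e-10). For these genes, calls or directions were lost with library totals as scaling for CCNA2 in A320 (0.06) and CCNB2 in A320 (0.02) and with each cell thinned to 3000 UMIs for CCNA2 in A320 (0.20) and CCNB2 in A320 (0.13).

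The CDC25 phosphatases remove the inhibitory phosphates from CDK1, and the 2 on the list differed. CDC25B was at 33.0 and 38.9 CPM in P10 cells, 33.7 and 36.7 in P320, 32.6 and 32.5 in A10 and 86.3 and 91.3 in A320, against 26.9 and 28.6 CPM in control. CDC25B log2 changes against control were 0.38 ± 0.096 in P10, 0.34 ± 0.080 in P320, 0.23 ± 0.074 in A10 and 1.68 ± 0.067 in A320 (SE), and edgeR called all 4. Every olaparib sum lay above both control sums, and the A320 sums stood far above the rest. CDC25C was at 5.16 and 3.84 CPM in P10 cells, 9.17 and 9.43 in P320, 20.05 and 18.7 in A10 and 15.2 and 14.9 in A320, against 22.3 and 19.6 CPM in control. CDC25C log2 changes against control were -2.22 ± 0.19 in P10, -1.17 ± 0.12 in P320, -0.11 ± 0.091 in A10 and -0.48 ± 0.094 in A320 (SE), and edgeR did not call A10. FOXM1, the transcription factor that drives G2 genes, was at 9.54 and 8.89 CPM in P10 cells, 12.6 and 12.7 in P320, 17.3 and 18.8 in A10 and 16.8 and 17.7 in A320, against 15.1 and 19.1 CPM in control. FOXM1 log2 changes against control were -0.89 ± 0.17 in P10, -0.43 ± 0.12 in P320, 0.08 ± 0.10 in A10 and 0.01 ± 0.10 in A320 (SE), and edgeR did not call A10 or A320. Its adapted sums overlapped with those of control. Here, calls or directions were lost with each cell thinned to 3000 UMIs for CDC25B in P320 (0.18), CDC25B in A10 (0.20), CDC25C in A320 (-0.27) and FOXM1 in P10 (-0.35), with every sum thinned to the smallest total for CDC25B in P320 (0.27), CDC25B in A10 (0.15) and CDC25C in A320 (-0.01) and with library totals as scaling for CDC25B in A10 (0.16). Apart from scaling and depth, a left-out pool or another model ended the call of CDC25B in P10 without P10 pool 2 (0.24), of CDC25B in A10 without control pool 1 (0.18) and of FOXM1 in P320 without control pool 2 (-0.26).

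All 5 mitotic kinases outside the passenger complex were lower in P10 and in P320, 4 were lower in A10 and 3 in A320, and none was called higher. Of all genes, 29.3% were lower in P10, 28.3% in P320, 33.4% in A10 and 36.9% in A320. PLK1, which acts from mitotic entry to cytokinesis, was at 14.7 and 12.01 CPM in P10 cells, 15.2 and 11.5 in P320, 31.2 and 28.9 in A10 and 37.0 and 36.9 in A320, against 52.3 and 55.9 CPM in control. PLK1 log2 changes against control were -2.02 ± 0.12 in P10, -2.01 ± 0.099 in P320, -0.85 ± 0.077 in A10 and -0.55 ± 0.074 in A320 (SE), and edgeR called all 4. It was lower in every olaparib sum than in either control sum. AURKA, the kinase of spindle poles, was at 51.3 and 38.0 CPM in P10 cells, 26.9 and 21.0 in P320, 96.7 and 92.0 in A10 and 116 and 118 in A320, against 108 and 105 CPM in control. AURKA log2 changes against control were -1.26 ± 0.10 in P10, -2.15 ± 0.098 in P320, -0.18 ± 0.076 in A10 and 0.14 ± 0.075 in A320 (SE), and edgeR did not call A10 or A320. P320 held the lowest AURKA sums. NEK2, TTK and BUB1, kinases of centrosome separation and of the checkpoint, changed in P10 by -1.61 ± 0.12, -1.39 ± 0.10 and -2.01 ± 0.15, and all were called. Kinase calls with library totals were 5 lower and 0 higher in A10 and 4 lower and 0 higher in A320. Kinase calls with cells thinned to 3000 UMIs were 5 lower and 0 higher in A10 and 2 lower and 0 higher in A320. Kinase calls with sums thinned to the smallest total were 3 lower and 0 higher in A10 and 2 lower and 0 higher in A320.

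The 6 genes of the spindle checkpoint, the anaphase-promoting complex and its substrates were all lower in P10 and in P320. The shares of all genes called lower there were 29.3% and 28.3%. In A320, 3 were higher and 2 lower, near the shares of all genes (37.6% and 36.9%), so nothing is read from these counts. BUB1B codes for the checkpoint protein BUBR1 and was at 11.3 and 6.97 CPM in P10 cells, 11.1 and 11.2 in P320, 23.4 and 24.3 in A10 and 23.8 and 23.5 in A320, against 49.97 and 46.9 CPM in control. BUB1B log2 changes against control were -2.41 ± 0.14 in P10, -2.12 ± 0.10 in P320, -1.02 ± 0.079 in A10 and -1.03 ± 0.079 in A320 (SE), and edgeR called all 4. BUB3, its partner, was at 78.9 and 74.0 CPM in P10 cells, 65.7 and 66.1 in P320, 89.6 and 87.1 in A10 and 141 and 134 in A320, against 96.0 and 100.2 CPM in control. BUB3 log2 changes against control were -0.36 ± 0.065 in P10, -0.57 ± 0.058 in P320, -0.15 ± 0.053 in A10 and 0.49 ± 0.052 in A320 (SE), and edgeR called all 4. The checkpoint partners therefore differed in A320, where BUB1B was lower and BUB3 higher than in control. Checkpoint group calls with library totals were 3 lower and 3 higher in A320. Checkpoint group calls with cells thinned to 3000 UMIs were 5 lower and 0 higher in P10 and 3 lower and 3 higher in A320. Among these genes, calls or directions were lost with each cell thinned to 3000 UMIs for BUB3 in P10 (-0.23) and BUB3 in A10 (-0.06) and with every sum thinned to the smallest total for BUB3 in A10 (-0.13). In other fits, a left-out pool or another model ended the call of BUB3 in A10 without A10 pool 2 (-0.13) or control pool 2 (-0.13) and with DESeq2 (-0.13).

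CDC20, the activator of the anaphase-promoting complex that the checkpoint restrains, was at 45.1 and 41.1 CPM in P10 cells, 32.3 and 33.4 in P320, 76.5 and 72.6 in A10 and 123 and 119 in A320, against 145 and 156 CPM in control. CDC20 log2 changes against control were -1.81 ± 0.073 in P10, -2.20 ± 0.066 in P320, -1.01 ± 0.055 in A10 and -0.32 ± 0.053 in A320 (SE), and edgeR called all 4. UBE2C, the ubiquitin-conjugating enzyme of that complex, was at 148 and 142 CPM in P10 cells, 118 and 115 in P320, 332 and 304 in A10 and 761 and 738 in A320, against 303 and 313 CPM in control. UBE2C log2 changes against control were -1.08 ± 0.053 in P10, -1.40 ± 0.050 in P320, 0.04 ± 0.046 in A10 and 1.28 ± 0.045 in A320 (SE), and edgeR did not call A10. The A320 sums of UBE2C were the highest of the 5 conditions, while those of CDC20 stayed below control. PTTG1, or securin, which the complex destroys at anaphase, was at 163 and 169 CPM in P10 cells, 221 and 191 in P320, 437 and 441 in A10 and 682 and 655 in A320, against 481 and 491 CPM in control, with an A320 change of 0.46 ± 0.048 (SE, edgeR adjusted p = 7.88e-10). MAD2L1, another checkpoint protein, fell in P10 by 1.23 ± 0.079 on the log2 scale and was not called in A320 (-0.11 ± 0.060).

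The chromosomal passenger complex corrects faulty attachments. All 4 of its genes were lower in persister cells, and in A320 AURKB and BIRC5 were higher while INCENP and CDCA8 were lower. Among all genes, 29.3% were lower in P10 and 28.3% in P320. As 37.6% of all genes were higher and 36.9% lower in A320, nothing is read from the A320 split as a count. AURKB, its kinase, was at 32.0 and 26.2 CPM in P10 cells, 29.8 and 29.1 in P320, 104 and 93.4 in A10 and 142 and 129 in A320, against 74.7 and 80.1 CPM in control. AURKB log2 changes against control were -1.42 ± 0.095 in P10, -1.39 ± 0.079 in P320, 0.35 ± 0.063 in A10 and 0.81 ± 0.062 in A320 (SE), and edgeR called all 4. CDCA8, or borealin, was at 16.2 and 17.1 CPM in P10 cells, 23.0 and 19.0 in P320, 25.01 and 26.6 in A10 and 26.1 and 26.2 in A320, against 66.0 and 69.5 CPM in control. CDCA8 log2 changes against control were -2.02 ± 0.11 in P10, -1.69 ± 0.083 in P320, -1.39 ± 0.072 in A10 and -1.38 ± 0.071 in A320 (SE), and edgeR called all 4. Both adapted populations lay above control for AURKB and below it for CDCA8. BIRC5, or survivin, was at 26.3 and 27.6 CPM in P10 cells, 30.5 and 29.8 in P320, 75.9 and 66.8 in A10 and 111 and 106 in A320, against 82.5 and 83.0 CPM in control, with an A320 change of 0.40 ± 0.058 (SE, edgeR adjusted p = 5.44e-07). INCENP, the scaffold, changed in A320 by -0.90 ± 0.11 (SE, edgeR adjusted p = 2.07e-08).

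Centromere genes of the constitutive network (6, with the centromeric histone CENPA) were all lower in persister cells, and in A320 3 were lower and 2 higher. Among all genes, 29.3% were lower in P10 and 28.3% in P320. The A320 counts lie near the shares of all genes, 36.9% and 37.6%, and nothing is read from them. CENPM was at 11.9 and 18.0 CPM in P10 cells, 22.0 and 28.4 in P320, 50.4 and 42.6 in A10 and 67.1 and 66.3 in A320, against 38.1 and 38.7 CPM in control. CENPM log2 changes against control were -1.35 ± 0.16 in P10, -0.61 ± 0.12 in P320, 0.28 ± 0.097 in A10 and 0.79 ± 0.093 in A320 (SE), and edgeR called all 4. CENPN was at 16.8 and 14.9 CPM in P10 cells, 20.2 and 20.6 in P320, 37.8 and 35.1 in A10 and 77.7 and 75.6 in A320, against 47.9 and 48.0 CPM in control, with an A320 change of 0.68 ± 0.061 (SE, edgeR adjusted p = 3.86e-11). CENPK and CENPU, further subunits, were among the genes with the smallest falls in a persister or adapted condition. CENPK was at 32.8 and 38.9 CPM in P10 cells, 48.8 and 41.2 in P320, 58.7 and 49.95 in A10 and 71.2 and 64.5 in A320, against 68.4 and 67.1 CPM in control, and CENPU at 22.2 and 19.2 CPM in P10 cells, 43.0 and 38.7 in P320, 33.6 and 28.4 in A10 and 39.4 and 40.7 in A320, against 52.0 and 54.2 CPM in control. CENPU log2 changes against control were -1.36 ± 0.11 in P10, -0.38 ± 0.079 in P320, -0.77 ± 0.075 in A10 and -0.41 ± 0.072 in A320 (SE), and edgeR called all 4. Both P320 sums of CENPU lay above both P10 sums. Centromere calls with library totals were 4 lower and 2 higher in A320. Centromere calls with sums thinned to the smallest total were 5 lower and 0 higher in P320 and 2 lower and 2 higher in A320. For these genes, calls or directions were lost with every sum thinned to the smallest total for CENPM in P320 (-0.36) and with library totals as scaling for CENPM in A10 (0.21). Likewise, a left-out pool or another model ended the call of CENPM in A10 without A10 pool 1 (0.14) or control pool 1 (0.26) or control pool 2 (0.28).

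At the outer kinetochore and its corona, where microtubules bind, 7 of 7 genes were lower in P10, in P320, in A10 and in A320. Of all genes tested, 29.3%, 28.3%, 33.4% and 36.9% were lower in the same order. The median log2 change of these 7 was -1.95 in P10, -1.29 in P320, -0.93 in A10 and -0.73 in A320. CENPF, a large corona protein, was at 146 and 143 CPM in P10 cells, 229.8 and 235 in P320, 275 and 236 in A10 and 334 and 321 in A320, against 646 and 651 CPM in control. CENPF log2 changes against control were -2.17 ± 0.060 in P10, -1.48 ± 0.053 in P320, -1.34 ± 0.052 in A10 and -0.99 ± 0.051 in A320 (SE), and edgeR called all 4. The NDC80 complex, the main microtubule coupler, is made of 4 subunits on the list. In A320 they changed by -0.24 ± 0.071 (NDC80), -0.73 ± 0.064 (NUF2), -0.80 ± 0.080 (SPC24) and -0.81 ± 0.077 (SPC25), and all were called. KNL1, the checkpoint scaffold, changed by -2.03 ± 0.12 in P10 and by -0.81 ± 0.083 in P320. CENPE, a kinetochore motor, changed by -2.33 ± 0.13 and -1.72 ± 0.097 in the same order. Outer kinetochore calls with sums thinned to the smallest total were 6 lower and 0 higher in A320. Apart from scaling and depth, a left-out pool or another model ended the call of NDC80 in A320 without control pool 1 (-0.19).

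The 6 spindle microtubule proteins and the 6 kinesins of spindle and chromosome movement were all lower in P10, P320 and A10. The shares of all genes called lower were 29.3%, 28.3% and 33.4%. DLGAP5, a spindle protein that stabilises kinetochore fibres, was at 16.0 and 17.5 CPM in P10 cells, 28.9 and 24.7 in P320, 70.6 and 69.0 in A10 and 75.9 and 72.4 in A320, against 89.9 and 85.8 CPM in control. DLGAP5 log2 changes against control were -2.39 ± 0.099 in P10, -1.71 ± 0.074 in P320, -0.33 ± 0.060 in A10 and -0.25 ± 0.060 in A320 (SE), and edgeR called all 4. KIF4A, a chromosome-bound kinesin, was at 6.45 and 6.01 CPM in P10 cells, 13.2 and 11.5 in P320, 17.3 and 16.2 in A10 and 24.6 and 22.8 in A320, against 33.1 and 31.3 CPM in control. KIF4A log2 changes against control were -2.37 ± 0.15 in P10, -1.38 ± 0.10 in P320, -0.94 ± 0.085 in A10 and -0.44 ± 0.079 in A320 (SE), and edgeR called all 4. KIF2C, which takes microtubules apart at centromeres, was at 29.7 and 16.6 CPM in P10 cells, 30.0 and 32.8 in P320, 44.0 and 38.0 in A10 and 39.9 and 39.3 in A320, against 94.3 and 96.9 CPM in control. KIF2C log2 changes against control were -2.06 ± 0.17 in P10, -1.60 ± 0.13 in P320, -1.22 ± 0.12 in A10 and -1.27 ± 0.12 in A320 (SE), and edgeR called all 4. All 6 of these kinesins were lower in A320 too, where 36.9% of all genes were lower. TPX2, the activator of AURKA, and HMMR were not called in A320 (0.05 ± 0.049 and -0.02 ± 0.058). Kinesin calls with sums thinned to the smallest total were 4 lower and 0 higher in A320. Of the values above, calls or directions were lost with library totals as scaling for TPX2 in A320 (-0.18).

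Cytokinesis genes, 5 in number, were lower in P10, P320 and A10, where 29.3%, 28.3% and 33.4% of all genes were lower. In A320 3 of them were lower, beside 36.9% of all genes. ANLN, or anillin, the scaffold of the contractile ring, was at 21.4 and 18.0 CPM in P10 cells, 33.5 and 36.9 in P320, 40.4 and 41.8 in A10 and 69.6 and 66.0 in A320, against 97.9 and 99.9 CPM in control. ANLN log2 changes against control were -2.33 ± 0.094 in P10, -1.49 ± 0.070 in P320, -1.27 ± 0.063 in A10 and -0.55 ± 0.059 in A320 (SE), and edgeR called all 4. KIF20A, a kinesin of the central spindle, was at 8.51 and 6.49 CPM in P10 cells, 8.48 and 7.45 in P320, 28.3 and 31.8 in A10 and 36.6 and 37.0 in A320, against 35.5 and 37.4 CPM in control. It was lowest in persister cells. KIF20A and PRC1, which bundles the central spindle, had A320 changes of 0.02 ± 0.074 and -0.06 ± 0.092, neither called. MKI67, which codes for the Ki-67 antigen that coats mitotic chromosomes, was at 31.7 and 38.0 CPM in P10 cells, 47.3 and 47.7 in P320, 107 and 95.1 in A10 and 108 and 98.8 in A320, against 155 and 155 CPM in control. MKI67 log2 changes against control were -2.15 ± 0.084 in P10, -1.71 ± 0.068 in P320, -0.62 ± 0.059 in A10 and -0.59 ± 0.059 in A320 (SE), and edgeR called all 4. TOP2A, the topoisomerase that untangles sister chromatids, was at 58.5 and 63.2 CPM in P10 cells, 80.02 and 84.9 in P320, 222 and 200.5 in A10 and 237 and 243 in A320, against 239 and 241 CPM in control. TOP2A log2 changes against control were -1.98 ± 0.066 in P10, -1.54 ± 0.056 in P320, -0.19 ± 0.049 in A10 and 0.00 ± 0.049 in A320 (SE), and edgeR did not call A320. MKI67 thus stayed below control in both adapted populations, while TOP2A overlapped with control in A320. Cytokinesis calls with library totals were 5 lower and 0 higher in A320. Cytokinesis calls with cells thinned to 3000 UMIs were 4 lower and 0 higher in A10. Cytokinesis calls with sums thinned to the smallest total were 3 lower and 0 higher in A10 and 2 lower and 0 higher in A320. Among these genes, calls or directions were lost with library totals as scaling for KIF20A in A320 (-0.21) and with every sum thinned to the smallest total for TOP2A in A10 (-0.11). In other fits, a left-out pool or another model ended the call of TOP2A in A10 without A10 pool 2 (-0.11).

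**Figure D3:**
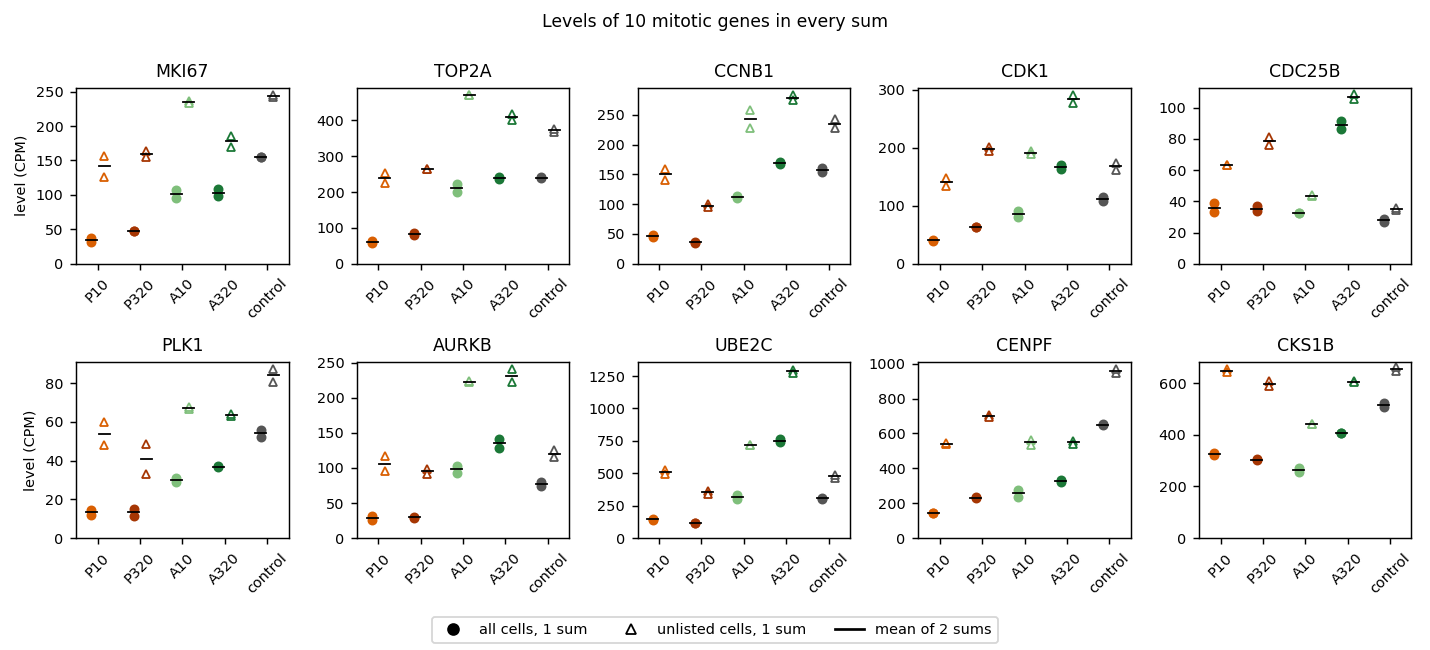
Level in CPM of 10 mitotic genes in every sum, for P10, P320, A10, A320 and control; filled circles are sums over all cells, open triangles sums over unlisted cells, and lines the mean of 2 sums. CDC25B and UBE2C are highest in A320, and CENPF is below control in all 4 olaparib conditions.

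Within unlisted persister cells most of the 56 genes were again called lower, with medians nearer 0. In P10, 41 genes were lower, 1 higher and 14 not called, where 17.1% of all genes were lower and 17.4% higher. In P320, 39 were lower and 7 higher, beside 21.8% and 20.8%. Medians were -0.60 in P10 and -0.37 in P320, against -0.03 and 0.00 for all genes. Thinning each cell to 3000 UMIs gave 26 calls in P10 and 28 in P320, thinning the sums to the smallest total gave 26 in P320, and library totals gave 25 lower and 10 higher in P320 with the all-gene median at 0.20.

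BUB1B in unlisted cells was at 32.8 and 26.1 CPM in P10 cells, 35.3 and 34.3 in P320, 47.3 and 54.3 in A10 and 39.5 and 39.6 in A320, against 72.8 and 68.5 CPM in control. CDC25C was at 11.3 and 11.98 CPM in P10 cells, 28.3 and 29.6 in P320, 41.3 and 43.3 in A10 and 25.7 and 25.7 in A320, against 33.1 and 29.6 CPM in control, and ANLN at 64.4 and 51.2 CPM in P10 cells, 95.3 and 99.0 in P320, 81.3 and 90.7 in A10 and 118 and 112 in A320, against 139.9 and 145 CPM in control. These were the 3 largest falls in unlisted P10 cells, at -1.26 ± 0.17 (SE, edgeR adjusted p = 7.63e-08), -1.43 ± 0.25 (SE, edgeR adjusted p = 1.45e-05) and -1.30 ± 0.13 (SE, edgeR adjusted p = 2.6e-11). The unlisted P10 sums of CDC25C held only 10 and 11 UMIs. In P320 cells the largest falls were those of AURKA, CDC20 and CCNB1. AURKA was at 157 and 114 CPM in P10 cells, 67.3 and 51.7 in P320, 199 and 214 in A10 and 194 and 198 in A320, against 163 and 159.7 CPM in control. CDC20 was at 119.8 and 109 CPM in P10 cells, 89.5 and 84.8 in P320, 145 and 150.1 in A10 and 195 and 194 in A320, against 212 and 232 CPM in control, and CCNB1 at 159 and 141 CPM in P10 cells, 99.8 and 94.7 in P320, 228 and 259 in A10 and 284 and 275 in A320, against 227 and 243 CPM in control. Their P320 changes were -1.44 ± 0.097 (SE, edgeR adjusted p = 1.82e-14), -1.35 ± 0.077 (SE, edgeR adjusted p = 7.16e-18) and -1.27 ± 0.079 (SE, edgeR adjusted p = 7.81e-17). For these genes, calls or directions were lost with each cell thinned to 3000 UMIs for CDC25C in P10 (-0.86).

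The 7 genes called higher in unlisted P320 cells were CDC25B, CENPU, FOXM1, CENPM, CENPK, NEK2 and CDK1. CDC25B was at 63.3 and 63.2 CPM in P10 cells, 76.0 and 81.3 in P320, 43.4 and 43.9 in A10 and 105 and 109 in A320, against 34.2 and 35.4 CPM in control, and its P320 change was 1.18 ± 0.094 (SE, edgeR adjusted p = 1.77e-13). CENPU was at 76.9 and 70.8 CPM in P10 cells, 129.7 and 110.5 in P320, 66.1 and 61.7 in A10 and 62.3 and 65.8 in A320, against 72.9 and 77.0 CPM in control, with 0.68 ± 0.083 (SE, edgeR adjusted p = 1.04e-08). FOXM1 was at 32.8 and 35.9 CPM in P10 cells, 39.4 and 37.1 in P320, 35.7 and 40.8 in A10 and 27.9 and 30.2 in A320, against 22.0 and 27.9 CPM in control, with 0.61 ± 0.14 (SE, edgeR adjusted p = 0.000301). Among these genes CENPU was called higher in P320, not called in P10 and called lower in both adapted conditions. CENPK was at 96.1 and 115 CPM in P10 cells, 134 and 114 in P320, 110.3 and 99.1 in A10 and 111 and 102 in A320, against 94.97 and 94.7 CPM in control, and NEK2 at 61.0 and 46.8 CPM in P10 cells, 89.9 and 75.4 in P320, 53.4 and 66.0 in A10 and 70.0 and 68.7 in A320, against 66.9 and 72.2 CPM in control. CENPM, NEK2 and CDK1 changed by 0.44 ± 0.10, 0.25 ± 0.10 and 0.23 ± 0.067, and CENPK by 0.39 ± 0.083. Here, calls or directions were lost with each cell thinned to 3000 UMIs for FOXM1 in P320 (0.43), CENPU in A10 (-0.19), CENPU in A320 (-0.15) and CENPM in P320 (0.32) and with every sum thinned to the smallest total for CENPU in A10 (0.00), CENPU in A320 (-0.04), NEK2 in P320 (0.22), CDK1 in P320 (0.27) and CENPK in P320 (0.32). Apart from scaling and depth, a left-out pool or another model ended the call of CENPU in A10 without A10 pool 2 (-0.19) or control pool 2 (-0.20) and with DESeq2 (-0.20), of CENPU in A320 without A320 pool 1 (-0.19) or control pool 2 (-0.20), of CENPM in P320 without P320 pool 2 (0.27), of NEK2 in P320 in 7 such fits (0.10 to 0.25), of CDK1 in P320 without P320 pool 1 (0.19) or control pool 1 (0.17) and of CENPK in P320 without P320 pool 1 (0.25).

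In unlisted adapted cells the calls went both ways. In A10, 26 genes were lower, 16 higher and 14 not called, beside 29.7% lower and 30.1% higher among all genes. In A320, 25 were lower, 20 higher and 11 not called, beside 36.2% and 36.4%. The counts called higher lay near the background shares and those called lower above them, more so in A10, and the medians of the 56 genes, -0.08 and -0.06, were near those of all genes, 0.00 and 0.01. With sums thinned to the smallest total the calls numbered 20 in A10 and 22 in A320, and library totals gave 31 lower and 13 higher in A320 with the all-gene median at -0.15.

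For the cyclin, outer kinetochore and kinesin groups the calls in unlisted adapted cells fell as follows. The other role groups are not counted here, and a pattern by role was not tested. Of all genes, 29.7% were lower and 30.1% higher in A10, and 36.2% and 36.4% in A320. Of the 9 cyclins, CDK1 and activators, 6 were higher in A10 and 6 in A320. Of the 7 outer kinetochore genes none was higher, with 7 lower in A10 and 5 in A320, and of the 6 kinesins none was higher, with 4 and 5 lower. Cyclin group calls with library totals were 1 lower and 4 higher in A10 and 2 lower and 5 higher in A320. Cyclin group calls with cells thinned to 3000 UMIs were 1 lower and 3 higher in A10 and 0 lower and 6 higher in A320. Cyclin group calls with sums thinned to the smallest total were 1 lower and 2 higher in A10 and 0 lower and 5 higher in A320. Outer kinetochore calls with library totals were 7 lower and 0 higher in A320. Outer kinetochore calls with cells thinned to 3000 UMIs were 4 lower and 0 higher in A10 and 4 lower and 0 higher in A320. Outer kinetochore calls with sums thinned to the smallest total were 3 lower and 0 higher in A10 and 2 lower and 0 higher in A320. Kinesin calls with library totals were 5 lower and 0 higher in A10 and 6 lower and 0 higher in A320. Kinesin calls with cells thinned to 3000 UMIs were 2 lower and 0 higher in A10 and 2 lower and 0 higher in A320. Kinesin calls with sums thinned to the smallest total were 1 lower and 0 higher in A10 and 2 lower and 0 higher in A320. The 7 of 7 outer kinetochore genes lower in A10 thus hold with library totals and not with thinning. The mitotic cyclins and their kinase CDK1 were among those higher in A320. CCNA2 was at 41.8 and 58.8 CPM in P10 cells, 74.7 and 65.5 in P320, 72.2 and 80.2 in A10 and 87.2 and 91.0 in A320, against 64.1 and 66.3 CPM in control. CCNB2 was at 75.7 and 61.0 CPM in P10 cells, 42.7 and 45.8 in P320, 114 and 124 in A10 and 128 and 123 in A320, against 94.9 and 94.3 CPM in control, and CDK1 at 147 and 134 CPM in P10 cells, 200.4 and 194 in P320, 194 and 188 in A10 and 277 and 291 in A320, against 161 and 174 CPM in control. Their A320 changes were 0.45 ± 0.072 (SE, edgeR adjusted p = 6.88e-07), 0.41 ± 0.064 (SE, edgeR adjusted p = 4.72e-07) and 0.76 ± 0.056 (SE, edgeR adjusted p = 2.28e-15). UBE2C, the ubiquitin-conjugating enzyme, was at 527 and 495 CPM in P10 cells, 365 and 339 in P320, 714 and 722 in A10 and 1300.3 and 1271 in A320, against 466 and 485 CPM in control. UBE2C log2 changes against control were 0.10 ± 0.063 in P10, -0.43 ± 0.057 in P320, 0.59 ± 0.051 in A10 and 1.44 ± 0.051 in A320 (SE), and edgeR did not call P10. All A10 and A320 sums of UBE2C lay above those of control. CKS2 was at 299.6 and 308 CPM in P10 cells, 332 and 309 in P320, 316 and 363 in A10 and 509 and 525 in A320, against 342 and 350.3 CPM in control, and BUB3 at 141 and 125 CPM in P10 cells, 106 and 109 in P320, 134 and 130.2 in A10 and 197 and 183 in A320, against 123 and 132 CPM in control. Both were called higher in A320, by 0.58 ± 0.056 and 0.57 ± 0.060, and not in A10. Among these genes, calls or directions were lost with each cell thinned to 3000 UMIs for SPC25 in A10 (-0.27), with every sum thinned to the smallest total for SPC25 in A10 (0.22) and CCNA2 in A320 (0.28) and with library totals as scaling for CCNB1 in A320 (0.09). In other fits, a left-out pool or another model ended the call of SPC25 in A10 without A10 pool 1 (-0.20) or control pool 2 (-0.22) and with DESeq2 (-0.19).

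AURKB in unlisted cells was at 116 and 95.9 CPM in P10 cells, 98.5 and 91.9 in P320, 223 and 224 in A10 and 241 and 223 in A320, against 115 and 126 CPM in control. AURKB log2 changes against control were -0.19 ± 0.11 in P10, -0.34 ± 0.082 in P320, 0.89 ± 0.062 in A10 and 0.94 ± 0.060 in A320 (SE), and edgeR did not call P10. CENPM was at 38.4 and 62.1 CPM in P10 cells, 66.1 and 80.9 in P320, 97.8 and 87.9 in A10 and 106 and 105 in A320, against 53.2 and 55.2 CPM in control, and CENPN at 41.8 and 33.8 CPM in P10 cells, 52.6 and 45.8 in P320, 63.9 and 63.0 in A10 and 118 and 114 in A320, against 61.8 and 60.4 CPM in control. AURKB and CENPM were called higher in both adapted conditions, and CENPN in A320 only, with 0.05 ± 0.076 in A10. PTTG1 was at 488 and 477 CPM in P10 cells, 568 and 486 in P320, 705 and 769 in A10 and 1022 and 991 in A320, against 602 and 627 CPM in control, and BIRC5 at 91.6 and 99.1 CPM in P10 cells, 94.8 and 85.2 in P320, 144 and 144 in A10 and 183 and 176 in A320, against 115 and 118 CPM in control. TPX2 was at 288 and 287 CPM in P10 cells, 316 and 264 in P320, 439.6 and 443 in A10 and 446 and 426 in A320, against 375 and 383 CPM in control. These last 3 were lower than control in persister cells and higher in adapted cells, and each of these changes was called. In A320 they were 0.71 ± 0.055, 0.62 ± 0.059 and 0.20 ± 0.056, and in P10 -0.35 ± 0.070, -0.29 ± 0.11 and -0.40 ± 0.078. In these comparisons, calls or directions were lost with library totals as scaling for AURKB in P320 (-0.14), TPX2 in A320 (0.05), BIRC5 in P10 (-0.13), PTTG1 in P320 (-0.02) and BIRC5 in P320 (-0.17), with every sum thinned to the smallest total for AURKB in P320 (-0.14), BIRC5 in P10 (-0.32), TPX2 in P10 (-0.24), PTTG1 in P320 (-0.20), BIRC5 in P320 (-0.38), BIRC5 in A10 (0.37) and TPX2 in P320 (-0.20) and with each cell thinned to 3000 UMIs for BIRC5 in P10 (-0.09), PTTG1 in P320 (-0.18), BIRC5 in P320 (-0.24) and TPX2 in P320 (-0.24). Elsewhere, a left-out pool or another model ended the call of BIRC5 in P10 in 5 such fits (-0.37 to -0.26) and of PTTG1 in P320 without P320 pool 2 (-0.13).

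KIF20A was at 27.1 and 26.1 CPM in P10 cells, 26.7 and 22.5 in P320, 59.3 and 70.9 in A10 and 62.4 and 62.1 in A320, against 53.5 and 55.4 CPM in control, and TOP2A at 226 and 253 CPM in P10 cells, 264 and 264 in P320, 471 and 471 in A10 and 402 and 417 in A320, against 369 and 375 CPM in control. Their A10 changes were 0.25 ± 0.082 (SE, edgeR adjusted p = 0.00723) and 0.34 ± 0.053 (SE, edgeR adjusted p = 5.9e-07). TOP2A in A320 was at 0.14 ± 0.052, called. DLGAP5 was at 58.8 and 63.2 CPM in P10 cells, 93.2 and 75.0 in P320, 147 and 156 in A10 and 128 and 123 in A320, against 131 and 128 CPM in control. It was called higher in A10, by 0.22 ± 0.065. TTK was at 58.8 and 55.6 CPM in P10 cells, 72.7 and 67.1 in P320, 89.9 and 86.7 in A10 and 112 and 106 in A320, against 87.3 and 84.5 CPM in control, and HMMR at 148 and 121 CPM in P10 cells, 107 and 114 in P320, 148 and 158 in A10 and 201 and 201 in A320, against 177 and 172 CPM in control. Both were called higher in A320, by 0.34 ± 0.064 and 0.20 ± 0.058. In this group, calls or directions were lost with every sum thinned to the smallest total for KIF20A in A10 (0.08), TOP2A in A320 (0.21) and TTK in A320 (0.39), with library totals as scaling for TOP2A in A320 (-0.02) and HMMR in A320 (0.05) and with each cell thinned to 3000 UMIs for DLGAP5 in A10 (0.20) and HMMR in A320 (0.15). In addition, a left-out pool or another model ended the call of KIF20A in A10 without A10 pool 2 (0.12) or control pool 1 (0.22), of TOP2A in A320 in 4 such fits (0.10 to 0.14) and of DLGAP5 in A10 without A10 pool 2 (0.17).

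Other genes were lower in unlisted cells than in control in several conditions. CDCA8, KIF2C and CENPF were called lower in all 4. CDCA8, the borealin gene, was at 52.0 and 56.6 CPM in P10 cells, 69.8 and 58.8 in P320, 51.7 and 62.5 in A10 and 44.5 and 44.3 in A320, against 101 and 106 CPM in control. KIF2C was at 102 and 65.4 CPM in P10 cells, 98.1 and 100.2 in P320, 92.9 and 86.7 in A10 and 66.5 and 67.0 in A320, against 141 and 147 CPM in control, and CENPF at 537 and 547 CPM in P10 cells, 704 and 694 in P320, 564 and 533 in A10 and 559 and 541 in A320, against 948 and 969 CPM in control. CDCA8 log2 changes against control were -0.93 ± 0.14 in P10, -0.69 ± 0.096 in P320, -0.86 ± 0.080 in A10 and -1.22 ± 0.077 in A320 (SE), and edgeR called all 4. No olaparib sum of these 3 genes reached a control sum. MKI67 was at 127 and 157 CPM in P10 cells, 164 and 155 in P320, 236 and 234 in A10 and 185 and 170.2 in A320, against 242 and 245 CPM in control. MKI67 log2 changes against control were -0.78 ± 0.093 in P10, -0.61 ± 0.070 in P320, -0.05 ± 0.058 in A10 and -0.46 ± 0.058 in A320 (SE), and edgeR did not call A10. PLK1 codes for a kinase of mitotic entry and spindle assembly, and its sums were all below control. PLK1 was at 59.9 and 47.9 CPM in P10 cells, 48.4 and 33.1 in P320, 66.7 and 67.6 in A10 and 62.9 and 63.9 in A320, against 80.8 and 87.3 CPM in control. PLK1 log2 changes against control were -0.64 ± 0.15 in P10, -1.05 ± 0.11 in P320, -0.32 ± 0.081 in A10 and -0.41 ± 0.077 in A320 (SE), and edgeR called all 4. CKS1B codes for a small partner of cyclin-dependent kinases, and its A10 sums were the lowest. CKS1B was at 653 and 643 CPM in P10 cells, 609 and 589 in P320, 442 and 441 in A10 and 609 and 605 in A320, against 648 and 663 CPM in control. CKS1B log2 changes against control were -0.02 ± 0.059 in P10, -0.13 ± 0.052 in P320, -0.57 ± 0.050 in A10 and -0.11 ± 0.049 in A320 (SE), and edgeR did not call P10. KIF4A, the chromosome-bound kinesin, was at 24.9 and 25.1 CPM in P10 cells, 42.7 and 34.7 in P320, 36.0 and 36.2 in A10 and 41.4 and 38.5 in A320, against 47.9 and 45.3 CPM in control, and its sums were below control in each condition. For these genes, calls or directions were lost with each cell thinned to 3000 UMIs for CDCA8 in P10 (-0.59), CDCA8 in P320 (-0.44), CKS1B in P320 (-0.02) and CKS1B in A320 (-0.08), with every sum thinned to the smallest total for CDCA8 in P320 (-0.44), PLK1 in A10 (-0.33), PLK1 in A320 (-0.28), CKS1B in P320 (-0.16), CKS1B in A320 (-0.12) and KIF2C in P320 (-0.40) and with library totals as scaling for CKS1B in P320 (0.07). Likewise, a left-out pool or another model ended the call of CKS1B in P320 in 9 such fits (-0.15 to -0.11) and of CKS1B in A320 in 8 such fits (-0.13 to -0.09).

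Adapted cells held more of these transcripts than persister cells at the same dose. Over all cells, 54 genes were higher and 1 lower in A10 than in P10, where 31.4% of all genes were higher and 29.3% lower. In A320 against P320, 54 were higher and none lower, beside 34.1% and 32.6%. Medians were 1.06 and 1.12. CDC25C rose most in A10, by 2.11 ± 0.19 (SE, edgeR adjusted p = 9.85e-11), and UBE2C most in A320, by 2.68 ± 0.051 (SE, edgeR adjusted p = 7e-27). The P10 sums of CDC25C held only 20 and 16 UMIs. CKS1B was the gene lower in A10, at -0.30 ± 0.046 (SE, edgeR adjusted p = 1.79e-06). CENPU and KIF2C were not called in A320 (-0.03 ± 0.083 and 0.33 ± 0.14).

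In unlisted cells 32 genes were higher and 3 lower in A10 than in P10, beside 18.1% and 19.9% of all genes. The 3 lower genes were CDC25B, CKS1B and NUF2, at -0.53 ± 0.14, -0.55 ± 0.060 and -0.34 ± 0.13. In A320 against P320, 31 were higher and 11 lower, beside 27.8% and 28.8%. Among the 11 were CENPU at -0.91 ± 0.087 (SE, edgeR adjusted p = 1.13e-11) and 4 outer kinetochore genes, NUF2, SPC25, KNL1 and CENPF, at -0.47 ± 0.086, -0.53 ± 0.10, -0.45 ± 0.096 and -0.35 ± 0.053. AURKA and UBE2C rose most, by 1.72 ± 0.097 and 1.87 ± 0.057. Library totals gave 23 higher and 23 lower in A320 with the all-gene median at -0.35, and cells thinned to 3000 UMIs gave 19 calls in A10. Of the values above, calls or directions were lost with each cell thinned to 3000 UMIs for CDC25B in A10 against P10 (-0.38), NUF2 in A10 against P10 (0.12) and NUF2 in A320 against P320 (-0.37) and with every sum thinned to the smallest total for NUF2 in A10 against P10 (-0.43), SPC25 in A320 against P320 (-0.45) and KNL1 in A320 against P320 (-0.29). For the same genes, a left-out pool or another model ended the call of NUF2 in A10 against P10 in 6 such fits (-0.35 to -0.31).

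The doses were also compared within persister and within adapted cells. Over all cells, 28 genes were higher and 6 lower in P320 than in P10, beside 25.3% and 24.4% of all genes. The 6 lower genes were CCNB1, CCNB2, AURKA, BUB3, CDC20 and UBE2C. AURKA changed by -0.89 ± 0.13 (SE, edgeR adjusted p = 2.37e-05) and CCNB2 by -0.51 ± 0.13 (SE, edgeR adjusted p = 0.00202), against rises of 1.22 ± 0.14 (SE, edgeR adjusted p = 2.27e-08) in KNL1 and 1.05 ± 0.23 (SE, edgeR adjusted p = 0.000355) in CDC25C. With cells thinned to 3000 UMIs 8 of the 56 genes were called, 6 higher and 2 lower. In A320 against A10, 44 genes were higher and 1, CDC25C, lower (-0.36 ± 0.10), beside 33.4% and 32.4%. The largest rises were those of CDC25B (1.45 ± 0.069) and UBE2C (1.24 ± 0.046). Among these genes, calls or directions were lost with each cell thinned to 3000 UMIs for CCNB2 in P320 against P10 (-0.70), CDC25C in P320 against P10 (0.58), CDC25C in A320 against A10 (-0.20), CCNB1 in P320 against P10 (-0.32), BUB3 in P320 against P10 (-0.35) and CDC20 in P320 against P10 (-0.44) and with every sum thinned to the smallest total for CDC25C in A320 against A10 (0.01). In other fits, a left-out pool or another model ended the call of CCNB2 in P320 against P10 without P10 pool 1 (-0.29) and of BUB3 in P320 against P10 in 4 such fits (-0.21 to -0.16).

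In unlisted cells 17 genes were higher and 6 lower in P320 than in P10, beside 13.3% and 15.5% of all genes, and the 6 lower genes were CCNB1, CCNB2, AURKA, BUB3, CDC20 and UBE2C. In A320 against A10, 19 were higher and 11 lower, beside 29.4% and 29.0%. CDC25C fell by 0.72 ± 0.10 on the log2 scale and MKI67 by 0.41 ± 0.060, while CDC25B rose by 1.29 ± 0.078. Calls between persister doses dropped to 4 with cells thinned to 3000 UMIs and to 15 without P10 pool 1. Between adapted doses they dropped to 19 with thinned cells (14 higher and 5 lower) and to 15 with thinned sums, and library totals gave 14 higher and 15 lower. In these comparisons, calls or directions were lost with every sum thinned to the smallest total for CDC25C in A320 against A10 (-0.57), BUB3 in P320 against P10 (-0.31) and CDC20 in P320 against P10 (-0.36), with each cell thinned to 3000 UMIs for CCNB1 in P320 against P10 (-0.32), CCNB2 in P320 against P10 (-0.80), AURKA in P320 against P10 (-0.77), BUB3 in P320 against P10 (-0.60) and CDC20 in P320 against P10 (-0.37) and with library totals as scaling for BUB3 in P320 against P10 (-0.26). Elsewhere, a left-out pool or another model ended the call of CCNB2 in P320 against P10 without P10 pool 1 (-0.45), of BUB3 in P320 against P10 in 7 such fits (-0.32 to -0.21) and of CDC20 in P320 against P10 without P10 pool 1 (-0.31) or P320 pool 2 (-0.34) and without the 5% of cells richest in UMIs (-0.33).

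The difference itself, the adapted minus persister change at 320 µM less that at 10 µM, was called in 33 genes over all cells, 21 higher and 12 lower, beside 23.4% and 25.9% of all genes. In unlisted cells it was called in 25, 12 higher and 13 lower, beside 15.1% and 16.8%. It was highest in UBE2C, CDC25B and AURKA, at 1.55 ± 0.074 (SE, edgeR adjusted p = 6.74e-17), 1.48 ± 0.12 (SE, edgeR adjusted p = 3.4e-11) and 1.20 ± 0.15 (SE, edgeR adjusted p = 4.27e-06). It was lowest in CDC25C, at -1.42 ± 0.25 (SE, edgeR adjusted p = 2.28e-05), followed by KNL1 at -0.77 ± 0.17 (SE, edgeR adjusted p = 0.000289). CDC25C rests on few counts in P10, with 20 and 16 UMIs over all cells and 10 and 11 in unlisted cells. Of the 6 checkpoint and anaphase genes 5 were higher and none lower, and of the 7 outer kinetochore genes 3 were lower and none higher. Library totals gave 17 higher and 15 lower over all cells and 10 higher and 20 lower in unlisted cells, and cells thinned to 3000 UMIs 14 higher and 1 lower over all cells. In unlisted cells thinned cells gave 7 calls and thinned sums 16. Checkpoint group calls with cells thinned to 3000 UMIs were 0 lower and 3 higher in the difference. Outer kinetochore calls with cells thinned to 3000 UMIs were 0 lower and 0 higher in the difference. In this group, calls or directions were lost with each cell thinned to 3000 UMIs for CDC25C in the difference (-0.78) and KNL1 in the difference (-0.73).

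**Figure D4:**
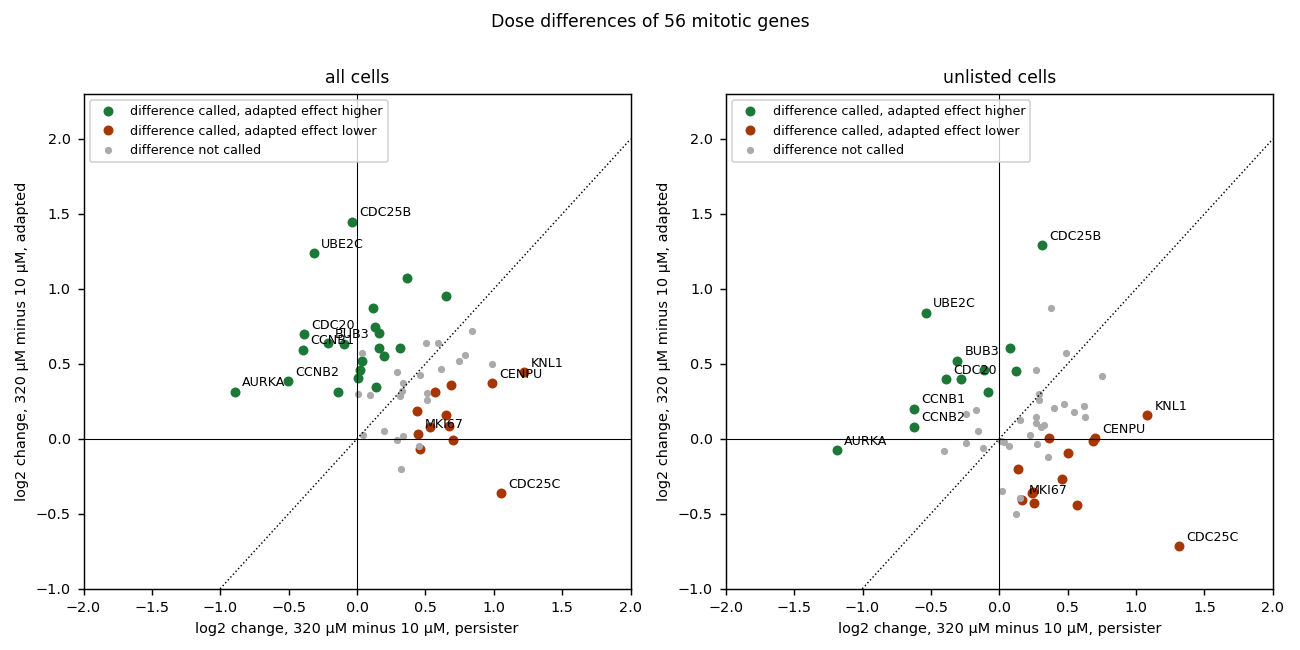
Log2 change between doses (320 µM minus 10 µM) in adapted cells (y axis) against that in persister cells (x axis) for the 56 genes, over all cells (left) and unlisted cells (right); green and brown points are genes whose difference was called higher or lower, grey points were not called, and the dotted line marks equal changes. UBE2C, CDC20, AURKA and both B-type cyclins lie above the line, and CDC25C and KNL1 below it.

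Sums weight each cell by its UMIs, so the genes were also counted per cell. Each cell was thinned to 3000 UMIs, and 207 cells with fewer were left out, among them 16 of 74 and 12 of 63 unlisted P10 cells. The mean number of UMIs of the 56 genes was then 7.16 ± 0.387 in P10 cells, 7.52 ± 0.220 in P320, 10.5 ± 0.424 in A10 and 13.5 ± 0.269 in A320, against 17.1 ± 0.057 in control (SD, n = 2 pools). A320 cells held 78.6% of the control value per cell. Thinned counts use no scaling factors, so this value is to be set beside the library-total sums of A320 (5579 and 5424 CPM, against 6405 and 6512 CPM in control), not beside the 99.7%. Unlisted A320 cells held more UMIs than listed ones, with medians of 10815.5 and 13064 against 6965.5 and 8108, and in control the medians were 9917 and 11699 against 7161 and 8454.5. The exact permutation p was 0.333 for each condition against control.

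Within unlisted cells the means were nearer to each other, at 20.7 ± 1.54 in P10, 23.5 ± 0.835 in P320, 23.4 ± 0.341 in A10 and 26.0 ± 0.112 in A320, against 25.6 ± 0.324 in control. Differences between these distributions were not tested. The median cell held 17.5 and 20 such UMIs in P10, 23 and 22.5 in P320, 18 and 17 in A10 and 22 and 22 in A320, against 20 and 21 in control. The highest 10% of cells started at 32.3 and 36 in P10, 38 and 36 in P320, 48 and 54.4 in A10 and 49 and 50 in A320, against 54 and 54 in control. At least 40 such UMIs were found in 5.50% of unlisted P10 cells, 6.42% of P320, 16.3% of A10 and 22.9% of A320 cells, against 19.5% of control cells. The start of the highest 10% was lower than in both control pools in all 4 persister pools, in both A320 pools and in pool 1 of A10. The median P320 cell was not below the median control cell.

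**Figure D5:**
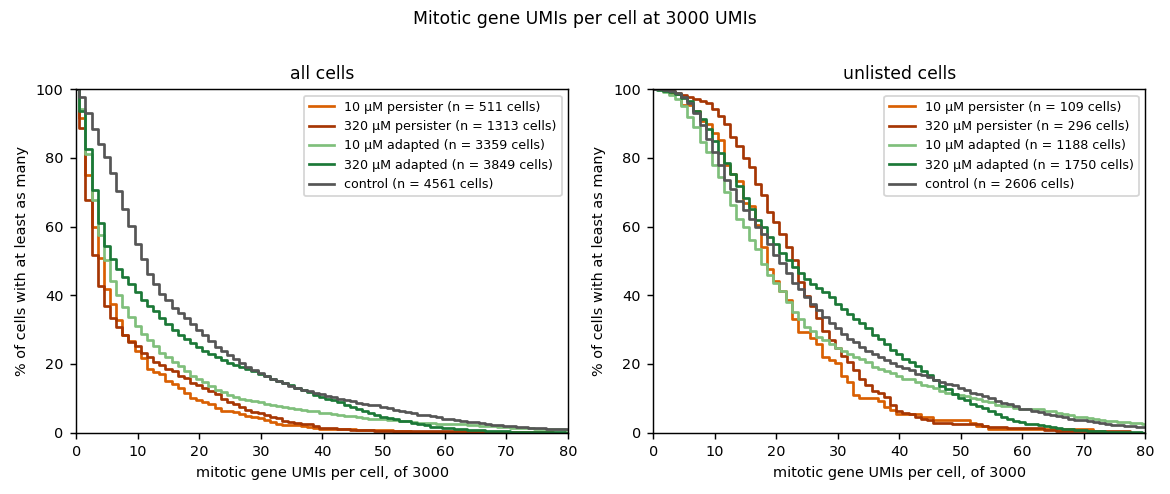
Share of cells in % (y axis) that hold at least a given number of UMIs of the 56 genes (x axis) after thinning each cell to 3000 UMIs, pools together, over all cells (left) and unlisted cells (right), for persister, adapted and control cells. In unlisted cells 87.2% of P10 and 94.3% of P320 cells reach 10 UMIs, against 77.9% of A10, 84.9% of A320 and 81.7% of control cells. The persister curves are the lowest at 40 UMIs, which 5.50% of P10 and 6.42% of P320 cells reach.

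Cells on the g1 table held few of these transcripts in every condition. Their summed level was 1014 ± 2.33 CPM in P10, 877 ± 35.3 in P320, 1254 ± 0.212 in A10 and 1242 ± 9.33 in A320, against 1924 ± 20.5 in control (SD, n = 2). The olaparib sums all lay below the control sums in this cell set. They stood at 52.7%, 45.6%, 65.2% and 64.5% of control. Per cell at 3000 UMIs they held 3.497, 2.81, 3.47 and 3.002 UMIs in the same order, against 5.86 in control. Not every gene followed the sum: CDC25B was at 64.0 and 70.7 CPM in listed A320 cells, against 15.2 and 18.0 CPM in listed control cells. Single genes were not tested in listed cells.

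Further genes of the same process, taken from general knowledge, were counted over all cells, to be read against the shares of all genes called. Those shares were 29.3% lower and 27.3% higher in P10 and 28.3% and 26.3% in P320. In A10 they were 33.4% and 33.7%, and in A320 36.9% and 37.6%. Of 20 condensin and cohesin genes, which shape and hold chromosomes, the calls were 20 lower and 0 higher in P10, 18 lower and 0 higher in P320, 17 lower and 0 higher in A10 and 15 lower and 2 higher in A320. NCAPG and SMC4, of condensin, changed in P10 by -2.29 ± 0.10 and -1.77 ± 0.067, and RAD21, of cohesin, by -0.84 ± 0.048 in P10 and -0.81 ± 0.043 in A320. Of 27 further kinetochore and centromere genes, the calls were 23 lower and 0 higher in P10, 21 lower and 0 higher in P320, 20 lower and 3 higher in A10 and 14 lower and 7 higher in A320, with ZWINT at -1.62 ± 0.11 in P10 and CENPH at 1.54 ± 0.062 in A320. Of 26 further spindle and cytokinesis genes, the calls were 24 lower and 0 higher in P10, 24 lower and 1 higher in P320, 19 lower and 3 higher in A10 and 10 lower and 9 higher in A320. The A320 counts of these 26 lie near the shares of all genes, and nothing is read from them. ASPM, a spindle pole protein, changed by -2.53 ± 0.073 in P10 and -1.30 ± 0.054 in A320, and STMN1, or stathmin, by -1.70 ± 0.048 and -0.84 ± 0.043.

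Of 17 subunits and regulators of the anaphase-promoting complex, the calls were 6 lower and 3 higher in P10, 7 lower and 3 higher in P320, 7 lower and 6 higher in A10 and 5 lower and 8 higher in A320. Among all genes, 29.3% were lower and 27.3% higher in P10, 28.3% and 26.3% in P320, 33.4% and 33.7% in A10 and 36.9% and 37.6% in A320. These counts lie near the background, and nothing is read from them. In this group UBE2S, the enzyme that extends its ubiquitin chains, was at -0.67 ± 0.045 in P10 and 0.85 ± 0.041 in A320. Of 14 genes of mitotic entry and exit, the calls were 10 lower and 1 higher in P10, 13 lower and 0 higher in P320, 8 lower and 1 higher in A10 and 6 lower and 6 higher in A320. DEPDC1 changed by -2.28 ± 0.098 in P10, and ENSA, an inhibitor of the phosphatase PP2A, by -1.45 ± 0.048 in A10 and -1.16 ± 0.047 in A320. Of 17 genes of DREAM, MuvB and E2F regulators, the calls were 10 lower and 2 higher in P10, 8 lower and 2 higher in P320, 11 lower and 1 higher in A10 and 8 lower and 3 higher in A320. MYBL2, which codes for B-MYB, changed by -1.08 ± 0.093 in P10, E2F4 by 0.74 ± 0.11 in P10, RBBP4 by -0.97 ± 0.058 in A320 and RBL2 by 1.05 ± 0.093 in A320.

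S phase genes, which copy DNA ahead of mitosis, were counted in the same way. Of 41, the calls over all cells were 36 lower and 1 higher in P10, 36 lower and 0 higher in P320, 27 lower and 5 higher in A10 and 24 lower and 5 higher in A320. In unlisted cells the counts were 9 lower and 7 higher in P10, 6 lower and 17 higher in P320, 9 lower and 14 higher in A10 and 18 lower and 8 higher in A320. Among all genes in unlisted cells, 17.1% were lower and 17.4% higher in P10, 21.8% and 20.8% in P320, 29.7% and 30.1% in A10 and 36.2% and 36.4% in A320. The P10 and A10 counts lie near these shares, and nothing is read from them. CLSPN, or claspin, changed by -1.56 ± 0.054 in A320 over all cells and -1.44 ± 0.058 in unlisted cells. The ratio of the summed mitotic level to the summed S phase level over all cells was 2.23 in P10, 2.24 in P320, 2.88 in A10 and 4.13 in A320, against 3.28 in control. In unlisted cells it was 2.44, 2.36, 3.02 and 4.41 in the same order, against 3.36 in control. The ratio was lower than control in persister and A10 cells and higher in A320 cells in both cell sets.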

How the data were processed

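The authors deposited UMI counts per gene and cell, and per the submitters' processing notes the tools were Cell Ranger 3.1 and Seurat, with hg38 (GRCh38) as build; per the labels' protocols the libraries were 10x 3′ v3.1 with hashtag antibodies. What each tool did, how cells were filtered and how hashtags were demultiplexed is not stated. In the deposited matrix no cell has under 502 genes, over 24458 UMIs or over 14.98% mitochondrial UMIs. No doublet caller was run on it here, and whether doublets had been removed before deposit is not stated. The g1 table lists cells by name, and it served here only to tell listed from unlisted cells.

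Counts were summed per condition and pool with Python 3.11.15 (pandas 2.3.3, numpy 2.4.6). Sums were fitted with edgeR 4.0.16 in R 4.3.3: filterByExpr, trimmed mean of M-values scaling, robust quasi-likelihood over all 10 sums, and Benjamini-Hochberg adjustment over all genes tested within a comparison and cell set (threshold 0.05). The biological coefficient of variation was 4.39% over all cells and 4.27% in unlisted cells, with 5 residual degrees of freedom. The scripts were tested on simulated counts, where small changes of genes with low counts were often not called, so a gene that is not called here may have changed. The pass mark of that test was changed after its first version, which asked for more calls, was not met. DESeq2 1.42.0, other scalings, no filter, only the sums compared, thinning, leaving out a pool, leaving out the 5% of cells richest in UMIs and the pool as a block were alternatives. Conditions were hashed together within a pool, so pools pair the sums: differences between pools correlated by 0.309 to 0.565 over 3761 genes in all cells and by 0.145 to 0.458 over 3950 in unlisted cells.

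The 56 genes, the other lists and the tests were chosen with earlier results of these data known. Values in every sum are given for 10 genes chosen by name, for the 3 genes with the largest and the 3 with the smallest falls per condition, and for genes called against the direction of most. From the other lists, those named have the lowest p among genes that reach 20 CPM in either condition.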

Additional observations from a re-analysis of the deposited data

Results flagged for a closer look

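The adapted minus persister change differed between doses in 33 of the 56 genes over all cells and in 25 in unlisted cells. This is by edgeR's test of the difference itself with an adjusted p under 0.05 over all genes. Many genes outside the list were called too. Of all genes tested, 23.4% were called higher and 25.9% lower over all cells, and 15.1% and 16.8% in unlisted cells. Values here are the log2 change of adapted against persister cells at 320 µM less that at 10 µM. Over all cells the difference was positive in UBE2C (1.55), CDC25B (1.48), AURKA (1.20), CDC20 (1.09), CCNB1 (0.99), CCNB2 (0.89), BUB3 (0.85), CKS2 (0.75), CKS1B (0.72), CENPN (0.70), HMMR (0.62), CENPW (0.54), KIF14 (0.48), KIF23 (0.45), BIRC5 (0.45), AURKB (0.44), MAD2L1 (0.40), TTK (0.36), CDK1 (0.30), PTTG1 (0.30) and TPX2 (0.20). It was negative in TOP2A (-0.25), CKAP5 (-0.26), CENPF (-0.33), MKI67 (-0.41), ECT2 (-0.46), KIF20B (-0.49), FOXM1 (-0.53), DLGAP5 (-0.59), CENPU (-0.61), SPC25 (-0.71), KNL1 (-0.77) and CDC25C (-1.42). In unlisted cells it was positive in UBE2C (1.38), AURKA (1.11), CDC25B (0.98), BUB3 (0.83), CCNB1 (0.83), CDC20 (0.79), CCNB2 (0.70), HMMR (0.68), CKS1B (0.57), CKS2 (0.53), BIRC5 (0.40) and PTTG1 (0.33). It was negative there in TOP2A (-0.34), CENPF (-0.36), MKI67 (-0.57), ECT2 (-0.59), CDCA8 (-0.60), BUB1B (-0.60), KIF2C (-0.68), CENPU (-0.70), KIF20B (-0.70), DLGAP5 (-0.73), KNL1 (-0.92), SPC25 (-1.01) and CDC25C (-2.03). CDC25C held only 10 and 11 UMIs in the unlisted P10 sums. With cells thinned to 3000 UMIs the difference was called in 15 genes over all cells and in 7 in unlisted cells, with thinned sums in 25 and 16, and library totals gave 17 higher and 15 lower over all cells and 10 higher and 20 lower in unlisted cells. FOXM1 over all cells turned to 0.048 with thinned cells. The 2 cell sets share cells, so they are no independent readings of this difference.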

How the results depend on the processing

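Of 1008 values of single genes (56 genes, 9 comparisons, 2 cell sets), 19152 alternatives were computed: 18009 kept direction and side of the threshold, 882 lost the call, 229 gained one and 32 changed sign. With each cell thinned to 3000 UMIs, the number of genes called was 8 for P320 against P10 in all cells, 15 for the difference in all cells, 26 for P10 against control in unlisted cells, 28 for P320 against control in unlisted cells, 19 for A10 against P10 in unlisted cells, 4 for P320 against P10 in unlisted cells, 19 for A320 against A10 in unlisted cells and 7 for the difference in unlisted cells. With every sum thinned to the smallest total, the number of genes called was 26 for P320 against control in unlisted cells, 20 for A10 against control in unlisted cells, 22 for A320 against control in unlisted cells, 15 for A320 against A10 in unlisted cells and 16 for the difference in unlisted cells. The sign changed with library totals as scaling in A320 against control (all cells) for CCNB1 (-0.12), TTK (-0.14), CENPK (-0.23), TPX2 (-0.18) and KIF20A (-0.21), in A320 against P320 (all cells) for ECT2 (-0.082), in A320 against A10 (all cells) for KIF20B (-0.0014), in P320 against control (unlisted cells) for CKS1B (0.072), in A320 against control (unlisted cells) for KIF23 (-0.14) and TOP2A (-0.017), in A10 against P10 (unlisted cells) for CENPF (-0.21), in A320 against P320 (unlisted cells) for CCNA2 (-0.010), CKS1B (-0.34), BUB1 (-0.0067), NUSAP1 (-0.082), CKAP2 (-0.35), CKAP5 (-0.19), KIF4A (-0.31), KIF11 (-0.29), ANLN (-0.12) and MKI67 (-0.20). The sign changed with each cell thinned to 3000 UMIs in A320 against P320 (all cells) for KNL1 (-0.034), in the difference (all cells) for FOXM1 (0.048), in P10 against control (unlisted cells) for CDK1 (0.13), in A320 against control (unlisted cells) for CDC25C (0.049), in A10 against P10 (unlisted cells) for NUF2 (0.12). The sign changed with every sum thinned to the smallest total in A320 against A10 (all cells) for CDC25C (0.0078), in A10 against control (unlisted cells) for CENPU (0.00015), SPC25 (0.22) and HMMR (0.025), in A320 against control (unlisted cells) for NUSAP1 (0.020), in A10 against P10 (unlisted cells) for KNL1 (-0.0022). Leaving out 1 pool of 1 condition gave these numbers of genes called over all cells: 55 to 56 for P10 against control, 55 to 56 for P320 against control, 48 to 53 for A10 against control, 41 to 48 for A320 against control, 53 to 55 for A10 against P10, 51 to 55 for A320 against P320, 26 to 35 for P320 against P10, 40 to 45 for A320 against A10 and 27 to 31 for the difference. In unlisted cells they were 33 to 46 for P10 against control, 37 to 47 for P320 against control, 36 to 42 for A10 against control, 38 to 45 for A320 against control, 28 to 35 for A10 against P10, 38 to 45 for A320 against P320, 15 to 23 for P320 against P10, 25 to 32 for A320 against A10 and 22 to 26 for the difference; the lowest for P320 against P10, 15, came without P10 pool 1. With the pool as a replicate block the counts over all cells were 56, 56, 53, 48, 55, 55, 35, 45 and 33 in the same order, and in unlisted cells 42, 47, 43, 48, 35, 44, 20, 32 and 25; no count moved by more than 1.5 times. The cause of these changes was not tested, beyond the fewer UMIs that thinning leaves. Depth limits unlisted P10 cells most, where 3 UMIs are worth 3.69 and 3.58 CPM. With 2 pools per condition, permutation tests of single values cannot pass a threshold.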
